A study of Homo sapiens with 6 samples.

Results

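The splicing factors described here are the SR proteins, the hnRNP proteins, the SF3 proteins and a few close partners, read as transcript levels in a human cell line with and without cinobufagin. They were chosen by gene symbol alone, as every gene of the deposited table whose Entrez ID maps to a name of the SRSF, HNRNP, SF3A or SF3B series, or to U2AF1, U2AF2, SF1, TRA2A, TRA2B or PTBP1. The rule found 51 of 17945 genes, made up of 12 SR genes, 24 hnRNP genes, 9 SF3 genes and 6 other factors. Of these, 47 were tested, since they reached 1 FPKM in at least 3 libraries; FPKM counts fragments per length of transcript and per size of the library. All 47 in fact reached that level in all 6 libraries, and the lowest value of a tested factor was 5.01 FPKM, in SRSF8. The 4 factors not tested were SRSF12, at 0.02 to 0.21 FPKM, and the hnRNP C-like genes HNRNPCL1, HNRNPCL2 and HNRNPCL4, which were listed at 0 throughout.

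RNA of ARPE-19 cells, a spontaneously arising line from human retinal pigment epithelium labelled as wild type, was sequenced after 24 h in medium with either 320 nM cinobufagin (3 libraries) or DMSO, the solvent control (3 libraries). Cinobufagin is a steroid from toad skin secretions of the cardiotonic group, which block the sodium pump. All libraries come from a single cell line under a single dose and time, and no source used here states that the libraries of a group were grown separately. The p-values therefore rest on the scatter among these libraries alone, and that scatter may be technical.

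Between 14701 and 14841 genes had a value above 0 in the cinobufagin libraries, and between 14794 and 14896 in the DMSO libraries. The sources used here give no read totals, so the depth behind each value is unknown. Of 12 markers of retinal pigment epithelium, 8 were high enough to test. The visual cycle gene RPE65 stood at 0.01 FPKM on average in each group and TTR was listed at 0, while the pigment cell regulator genes OTX2 (74.5 ± 2.81 FPKM with cinobufagin and 48.5 ± 0.322 with DMSO; SD, n = 3 each) and MITF (56.3 ± 1.26 and 45.1 ± 2.22) were expressed. Of the 8 tested, 3 rose (OTX2, MITF and RDH5), 2 fell (PMEL and SERPINF1) and 3 did not pass. The keratin genes KRT8 and KRT18 fell by 0.52 and by 0.48 on the log2 scale and the filament gene VIM fell by 0.54. Of 5 tested epithelial markers, 3 fell, 1 did not pass and CDH2, counted here as epithelial, rose by 0.50. Of 3 tested mesenchymal markers, 2 fell and 1 did not pass. Summed levels of immune cell markers were at most 0.74 FPKM. All 8 proliferation markers fell, with a median log2 fold change of -1.59 and a summed level of 62.1 to 66.5 FPKM in the cinobufagin libraries against 199 to 217 FPKM in the DMSO libraries. The part of all these markers in the results below was not tested. In such bulk RNA, fewer cells in one state and less RNA per cell cannot be told apart.

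Introns are removed by the spliceosome, whose early steps these proteins guide. SR proteins bind exons through RNA recognition motifs and recruit the splicing machinery through their arginine- and serine-rich tails, whereas many hnRNP proteins coat introns and exonic silencers and often oppose them. SF1 and the U2AF1 and U2AF2 pair mark the end of the intron first, after which the SF3a and SF3b complexes anchor the U2 small nuclear RNP at the branch point. Many of these genes limit their own output by splicing in a poison exon that sends the transcript to nonsense-mediated decay. Gene-level FPKM adds up all transcripts of a gene, so it measures neither the splicing of these genes nor the amount of their proteins. Other cardiotonic steroids have been reported to alter SR protein abundance and splicing in cultured cells, which is given here as background.

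Of the 47 factors tested, 25 fell with cinobufagin, 11 rose and 11 did not pass (limma-trend on log2 of FPKM + 1, adjusted p under 0.05). Among all 11599 genes tested, 28.4% fell and 39.2% rose, so 67.7% were called in one direction or the other. The factors stood at 53.2% fallen and 23.4% risen. Their median log2 fold change was -0.13, against 0.06 over all genes tested. By the size of change, 10 factors fell by 0.5 or more on the log2 scale, against a background of 11.3% of all genes, and 2 rose by as much, against 10.2%. The 10 include U2AF1 at -0.68, an uncertain entry for which the fit of its sum with a copy, described below, gave -0.39. In 24 factors the 3 cinobufagin values lay wholly below the 3 DMSO values, and in 11 wholly above, where the background over all genes is 29.6% below and 41.2% above. By family, 14 of 21 hnRNP genes fell and 3 rose, 5 of 11 SR genes fell and 4 rose, and 2 of 9 SF3 genes fell and 4 rose. The difference between families was not tested.

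**Figure D1:**
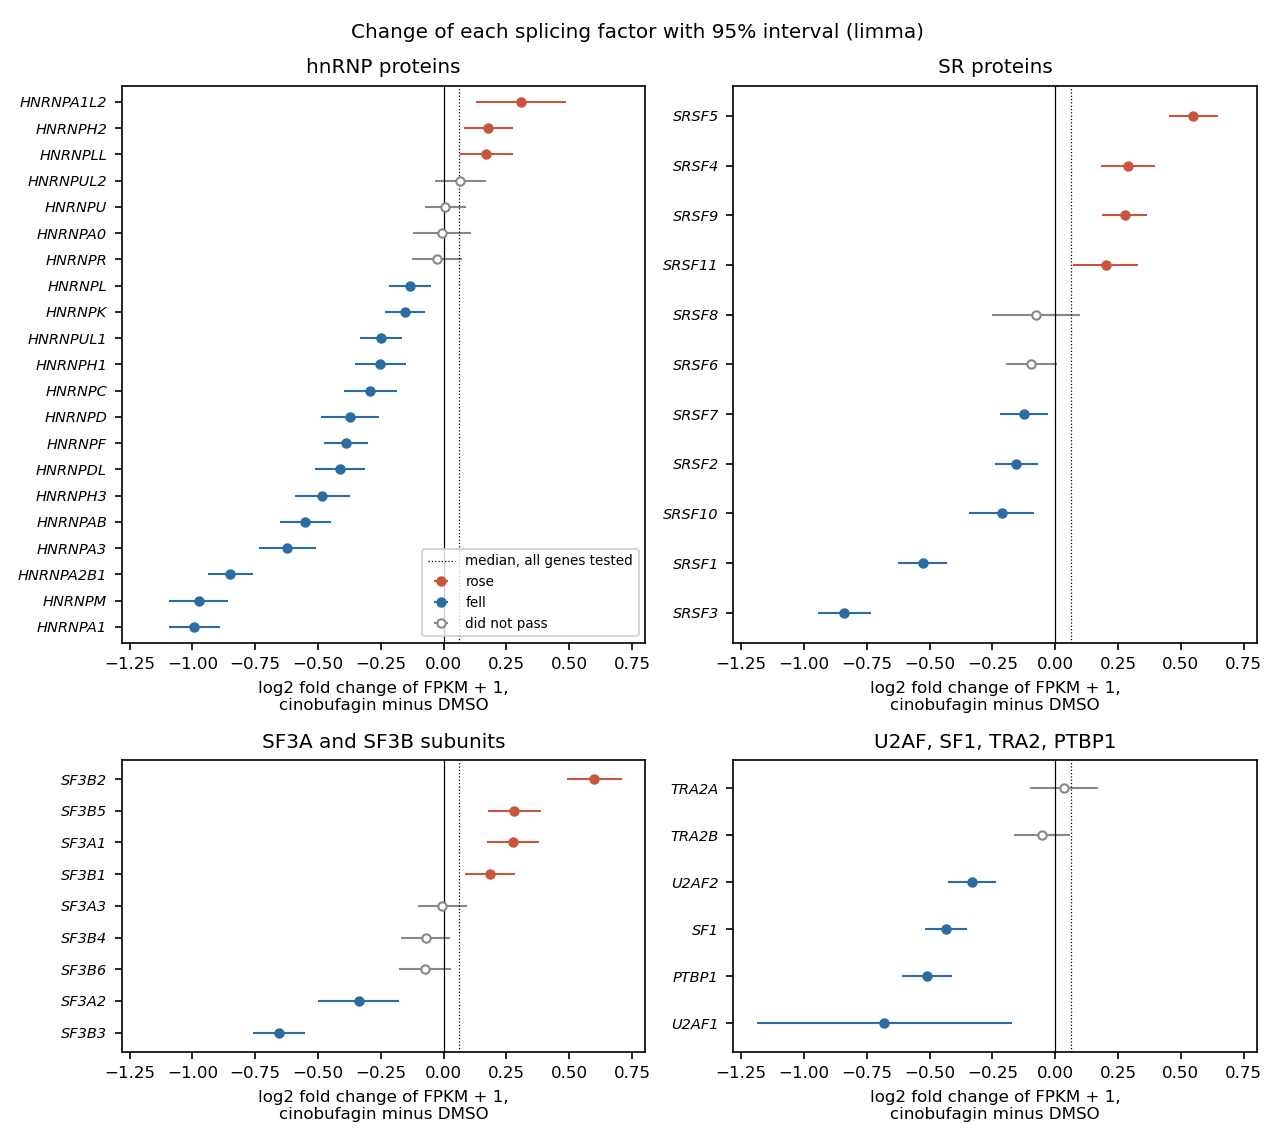
Log2 fold change of each tested splicing factor, as cinobufagin minus DMSO on the log2(FPKM + 1) scale, in 4 panels for the hnRNP, SR, SF3 and other factors; points are limma estimates from 3 libraries in each group, bars are 95% confidence intervals and colour marks the call. The hnRNP panel lies mostly left of 0, down to -0.99 for HNRNPA1, while the SF3 panel spans -0.66 for SF3B3 to 0.60 for SF3B2.

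The hnRNP family held the deepest falls. HNRNPA1 (gene ID 3178, chromosome 12, 54280193 to 54287088, plus strand on GRCh38), which binds exonic silencers and shuttles mRNA out of the nucleus, had 189.98, 177.50 and 176.84 FPKM with cinobufagin, against 375.10, 369.48 and 341.23 FPKM with DMSO. The groups were far apart, and the level was 1.99-fold lower with cinobufagin (log2 fold change -0.99, SE 0.05, limma adjusted p = 9.48e-09). Its close relative HNRNPA2B1 (gene ID 3181, chromosome 7, 26173057 to 26201529, minus strand), which also binds silencers and sorts RNAs for transport, had 142.29, 135.51 and 139.82 FPKM with cinobufagin and 259.00, 254.94 and 240.83 FPKM with DMSO. It fell by 0.85 on the log2 scale (SE 0.04, limma adjusted p = 1.16e-08), again without overlap. The gene overlaps NFE2L3 and CBX3 on the opposite strand, and no source used here gives the strand setting of the counting.

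HNRNPM (gene ID 4670, chromosome 19, 8444767 to 8489114, plus strand), a regulator of exon choice in the epithelial to mesenchymal switch, had 42.07, 43.23 and 41.11 FPKM with cinobufagin and 89.12, 85.39 and 77.07 FPKM with DMSO. The DMSO values were the more scattered, yet the lowest of them lay well above the highest cinobufagin value (log2 fold change -0.97, SE 0.05, limma adjusted p = 2.9e-08). Both HNRNPA3 and HNRNPAB, of the A/B type, were lower as well. HNRNPA3 averaged 63.9 FPKM with cinobufagin and 98.8 FPKM with DMSO (log2 fold change -0.62), and HNRNPAB averaged 76.8 FPKM with cinobufagin and 113 FPKM with DMSO (log2 fold change -0.55).

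Smaller falls covered most of the remaining family. HNRNPF fell by 0.39 on the log2 scale, HNRNPH3 fell by 0.48 and HNRNPH1 fell by 0.25; their proteins form the class that binds runs of guanine. HNRNPD, also called AUF1 for its binding to AU-rich decay elements, fell by 0.37 and its relative HNRNPDL fell by 0.41. HNRNPC, which binds uridine tracts, fell by 0.29, HNRNPUL1 fell by 0.25 and the CA-repeat binder HNRNPL fell by 0.13 (log2 fold change -0.09 after quantile normalization). HNRNPK (gene ID 3190), which binds cytosine-rich RNA, had 237.35, 229.44 and 229.49 FPKM with cinobufagin and 257.52, 258.64 and 259.38 FPKM with DMSO. That fall was small but without overlap (log2 fold change -0.16, SE 0.04, limma adjusted p = 0.00251), and it left HNRNPK the most abundant hnRNP transcript in the cinobufagin libraries, a place that HNRNPA1 held in the DMSO libraries.

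The other 7 hnRNP genes did not pass or rose. HNRNPU, a nuclear scaffold protein that binds RNA and chromatin, averaged 96.3 ± 1.54 FPKM with cinobufagin and 95.9 ± 0.597 FPKM with DMSO (SD, n = 3 each; log2 fold change 0.01, 95% interval -0.07 to 0.09, limma adjusted p = 0.887). HNRNPR, HNRNPA0 and HNRNPUL2 did not pass either, at log2 fold changes of -0.03, -0.01 and 0.07. Within each library, HNRNPA1 stood at 1.88 ± 0.0539 times the FPKM of HNRNPU with cinobufagin and at 3.77 ± 0.188 times with DMSO. That pair joins the deepest hnRNP fall to a gene that did not pass, so its ratio is only a description. HNRNPH2 and HNRNPLL rose by 0.18 and 0.17 on the log2 scale, in contrast to their paralogs HNRNPH1 and HNRNPL. The HNRNPH1 to HNRNPH2 ratio within a library was 1.46 ± 0.108 with cinobufagin and 1.97 ± 0.0797 with DMSO, and the HNRNPL to HNRNPLL ratio was 4.11 ± 0.139 and 5.11 ± 0.160.

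The third hnRNP gene that rose was HNRNPA1L2 (gene ID 144983, chromosome 13, 52642425 to 52643796), an intronless copy of HNRNPA1. It had 8.95, 9.10 and 9.43 FPKM with cinobufagin and 7.88, 7.69 and 6.16 FPKM with DMSO, which did not overlap (log2 fold change 0.31, SE 0.08, limma adjusted p = 0.00552). Both coding sequences are 960 bases long; they differ at 15 bases and are 98.4% identical. In transcripts, 76.4% of the 31-base words of HNRNPA1L2 occur in other annotated genes, and 27.5% of those of HNRNPA1 occur across 79 other genes. RefSeq names 75 genes as HNRNPA1 pseudogenes. No source used here says how reads were divided among these copies, so the low level and the rise of HNRNPA1L2 are uncertain. With no filter on low genes, the rise missed the threshold (limma adjusted p = 0.0535).

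**Figure D2:**
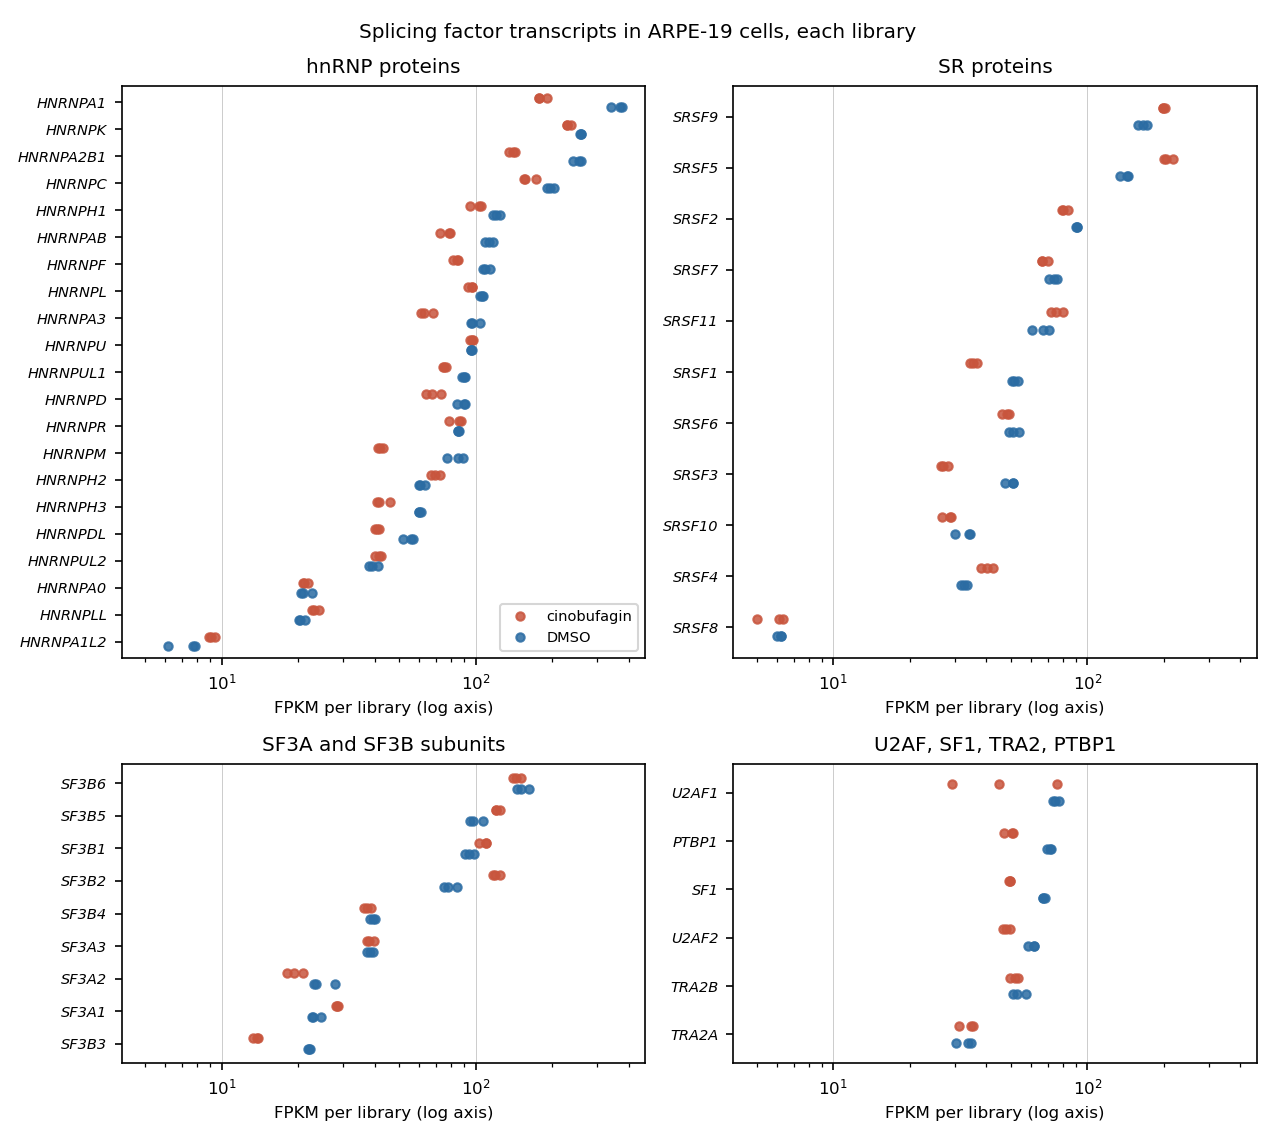
FPKM of each tested splicing factor in every library on a log axis, with the cinobufagin libraries beside the DMSO libraries, in panels for the hnRNP, SR, SF3 and other factors. HNRNPA1 sits at 177 to 190 FPKM with cinobufagin and 341 to 375 FPKM with DMSO, and U2AF1 shows the widest scatter among the cinobufagin libraries.

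In the SR family, members fell and rose in near-equal number. SRSF3 (gene ID 6428, chromosome 6, 36594353 to 36605600, plus strand), the smallest SR protein and an adaptor for mRNA export, had 28.37, 27.13 and 26.53 FPKM with cinobufagin, against 50.85, 51.12 and 47.30 FPKM with DMSO. The groups were well separated (log2 fold change -0.84, SE 0.05, limma adjusted p = 3.9e-08). SRSF1 (gene ID 6426, chromosome 17, 58003360 to 58007346, minus strand), the founding member of the family and known as SF2/ASF, had 35.53, 36.77 and 34.61 FPKM with cinobufagin and 50.44, 53.44 and 51.64 FPKM with DMSO. It fell by 0.53 on the log2 scale (SE 0.04, limma adjusted p = 8.62e-07). Of its 31-base words, 56.3% also lie in the annotated gene AC015813.2, which overlaps it on the same strand.

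SRSF5 moved the other way. This gene (gene ID 6430, chromosome 14, 69726900 to 69772005, plus strand), known as SRp40, had 216.60, 199.91 and 204.28 FPKM with cinobufagin and 144.68, 143.58 and 134.92 FPKM with DMSO. All cinobufagin values exceeded all DMSO values (log2 fold change 0.55, SE 0.04, limma adjusted p = 6.8e-07). SRSF9 (gene ID 8683, chromosome 12, 120461668 to 120469793, minus strand), the SR gene with the highest FPKM in the DMSO libraries, had 198.33, 198.90 and 202.97 FPKM with cinobufagin and 171.25, 157.99 and 165.89 FPKM with DMSO, without overlap (log2 fold change 0.28, limma adjusted p = 8.72e-05). SRSF4 (gene ID 6429), a larger SR protein gene, had 42.37, 38.08 and 40.44 FPKM with cinobufagin and 33.66, 32.75 and 31.89 FPKM with DMSO. It too was higher in all cinobufagin libraries (log2 fold change 0.29, limma adjusted p = 0.000274), and SRSF11 rose by 0.20 on the log2 scale (limma adjusted p = 0.0105).

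SRSF3 and SRSF5 parted, and so their ratio within a library differed between the groups. SRSF5 stood at 7.63, 7.37 and 7.70 times the FPKM of SRSF3 in the cinobufagin libraries, against 2.85, 2.81 and 2.85 times in the DMSO libraries. The SRSF9 to SRSF1 ratio averaged 5.62 ± 0.230 with cinobufagin and 3.19 ± 0.220 with DMSO (SD, n = 3 each). These pairs were formed from members already known to move apart and are given as a description.

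The remaining SR genes changed little. SRSF10, a repressor when it loses phosphate during cell division or heat shock, fell by 0.21 on the log2 scale, and SRSF2, a mainstay of nuclear speckles, fell by 0.15, at 81.3 ± 2.16 FPKM with cinobufagin and 90.6 ± 0.564 FPKM with DMSO. SRSF7, which carries a zinc knuckle, fell by 0.12 (limma adjusted p = 0.0256), a call that was lost without any one of 3 libraries: limma adjusted p = 0.0881 without cinobufagin replicate 2, 0.0926 without cinobufagin replicate 3 and 0.0973 without DMSO replicate 2. It was also lost without the mean-variance trend (0.0626), with library sums made equal (0.0528) and with no filter on low genes (0.0553). The call of SRSF11 was lost without cinobufagin replicate 2 (limma adjusted p = 0.0505) and with no filter (0.0871), and that of SRSF10 with no filter (0.0566). SRSF6 and SRSF8 did not pass, at log2 fold changes of -0.09 (95% interval -0.20 to 0.01) and -0.08 (95% interval -0.25 to 0.10). SRSF6 passed without DMSO replicate 1 (limma adjusted p = 0.0344) and after median centring (0.0246).

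Among the SF3 genes, SF3B2 and SF3B3, whose proteins sit in the same SF3b complex, moved in opposite directions. SF3B2 (gene ID 10992, chromosome 11, 66050729 to 66069308, plus strand), which contacts the pre-mRNA near the branch point, had 116.51, 119.10 and 124.61 FPKM with cinobufagin and 84.24, 77.76 and 74.78 FPKM with DMSO. It was the largest rise among the 47 factors (log2 fold change 0.60, SE 0.05, limma adjusted p = 7.6e-07). SF3B3 (gene ID 23450, chromosome 16, 70523788 to 70577670, plus strand), a scaffold subunit of that complex, had 13.33, 13.80 and 13.84 FPKM with cinobufagin and 21.92, 22.36 and 22.02 FPKM with DMSO. It fell by 0.66 on the log2 scale (SE 0.05, limma adjusted p = 2.73e-07), and neither gene's groups overlapped. SF3B2 stood at 8.79 ± 0.192 times the FPKM of SF3B3 within the cinobufagin libraries, against 3.57 ± 0.238 times within the DMSO libraries (SD, n = 3 each). The pair joins the largest rise and the largest fall among the SF3 genes, so the ratio is only a description.

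SF3B1, the subunit that grips the branch helix, rose by 0.18 on the log2 scale, at 108 ± 3.83 FPKM with cinobufagin and 94.5 ± 4.14 FPKM with DMSO (SD, n = 3 each; limma adjusted p = 0.00347). The small subunit gene SF3B5 (gene ID 83443) had 124.38, 120.32 and 119.72 FPKM with cinobufagin and 107.28, 97.57 and 94.92 FPKM with DMSO, so that all cinobufagin values were higher (log2 fold change 0.28, limma adjusted p = 0.000298). SF3B6 (gene ID 51639), which touches the branch adenosine and was the most abundant SF3 transcript, had 150.39, 143.85 and 140.68 FPKM with cinobufagin and 145.93, 162.36 and 150.23 FPKM with DMSO. These groups overlapped and did not pass, nor did SF3B4 (log2 fold change -0.07 for each gene) or PHF5A, the SF3b subunit outside the SF3B names (0.08). SF3B4 passed after quantile normalization (limma adjusted p = 0.0297) and after median centring (0.049).

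The SF3a genes differed in their calls too. Over the 9 SF3 genes, 22.2% fell and 44.4% rose, near the 28.4% and 39.2% over all genes tested. SF3A1, which holds the other two subunits together, rose by 0.28 on the log2 scale, at 28.35, 28.25 and 28.82 FPKM with cinobufagin and 24.54, 22.94 and 22.63 FPKM with DMSO. SF3A2 fell by 0.34, at 18.06, 20.93 and 19.32 FPKM with cinobufagin and 27.83, 23.17 and 23.60 FPKM with DMSO (limma adjusted p = 0.00159). SF3A3 did not pass (log2 fold change -0.01, 95% interval -0.10 to 0.09). SF3A1 overlaps CCDC157 in the annotation.

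Of the 6 other factors, 4 fell, 0 rose and 2 did not pass, where 28.4% fell and 39.2% rose over all genes tested. The groups did not overlap in 3 of the 6. The 4 that fell include U2AF1, whose groups overlapped and whose entry is treated below. PTBP1 (gene ID 5725, chromosome 19, 797075 to 812327, plus strand), the pyrimidine tract binder that silences neuronal and muscle exons, had 46.86, 50.66 and 51.09 FPKM with cinobufagin and 71.55, 69.37 and 72.08 FPKM with DMSO, without overlap (log2 fold change -0.51, limma adjusted p = 1.36e-06). SF1, the branch point binding protein, fell by 0.44 on the log2 scale, and U2AF2, the large U2AF subunit that binds the pyrimidine tract, fell by 0.33. TRA2A and TRA2B, SR-like activators of exons rich in GAA repeats, did not pass. TRA2B had 53.46, 52.02 and 49.52 FPKM with cinobufagin and 51.10, 57.13 and 52.62 FPKM with DMSO (log2 fold change -0.05, 95% interval -0.16 to 0.06), and TRA2A was at 0.04 (95% interval -0.10 to 0.17).

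The entry for U2AF1, the small U2AF subunit that reads the terminal AG of the intron, cannot be taken at face value on its own. A separate entry exists for LOC102724594, which RefSeq also names U2AF1L5, annotated as a copy on the same chromosome, 21. Whether this copy is a separate gene was not tested. Set beside a U2AF1 coding sequence of equal length, 720 bases, that of the copy differs at 0 bases. The first 120 bases are shown to make that plain, with no capitals since no base differs.
U2AF1: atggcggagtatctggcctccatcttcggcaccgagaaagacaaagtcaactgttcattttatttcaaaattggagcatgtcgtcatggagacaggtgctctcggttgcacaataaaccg
U2AF1L5: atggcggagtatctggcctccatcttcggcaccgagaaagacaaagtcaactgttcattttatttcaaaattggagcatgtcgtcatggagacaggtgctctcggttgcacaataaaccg
U2AF1 (chromosome 21, 43092956 to 43107587, minus strand) had 44.77, 75.87 and 29.45 FPKM with cinobufagin and 77.35, 74.69 and 73.29 FPKM with DMSO. The cinobufagin values were widely scattered and overlapped the DMSO values (log2 fold change -0.68, SE 0.23, limma adjusted p = 0.0211). Its copy was scattered in the opposite order, at 51.85, 12.89 and 59.70 FPKM with cinobufagin, against 52.91, 40.14 and 43.53 FPKM with DMSO, and did not pass (limma adjusted p = 0.422).

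Summed in each library, the pair had 96.62, 88.76 and 89.15 FPKM with cinobufagin and 130.26, 114.83 and 116.82 FPKM with DMSO. The sums did not overlap. Their SD was 4.43 FPKM over the cinobufagin libraries, against 23.7 FPKM for U2AF1 and 25.1 FPKM for the copy, but 8.39 FPKM over the DMSO libraries, against 2.06 and 6.62 FPKM. The fit of the sums gave a log2 difference of -0.39 (SE 0.05, limma adjusted p = 4.86e-05), an alternative chosen after the values were seen. The entry for U2AF1 alone lost its call when cinobufagin replicate 1 (log2 fold change -0.65, limma adjusted p = 0.0616), cinobufagin replicate 3 (-0.36, 0.071) or DMSO replicate 1 (-0.66, 0.0624) was left out. With no filter on low genes its limma adjusted p was 0.201. Without cinobufagin replicate 2 its log2 fold change was -1.03.

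**Figure D3:**
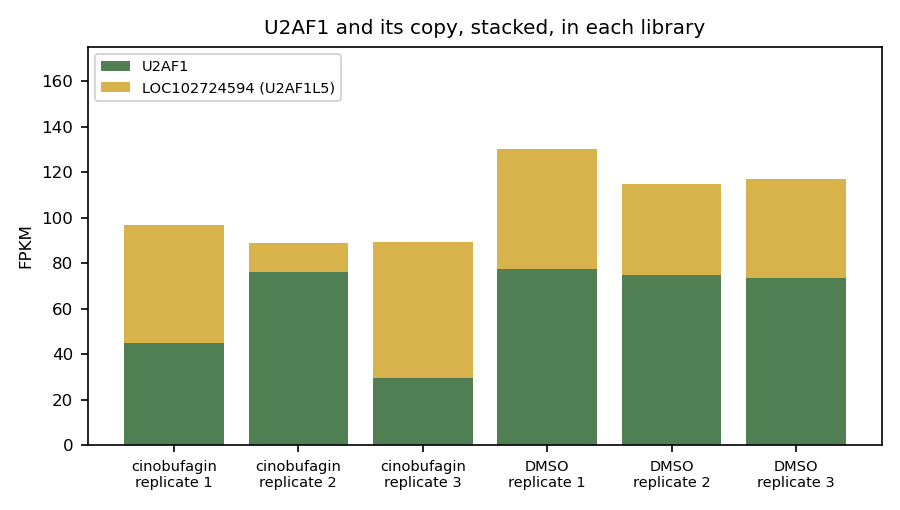
FPKM of U2AF1, of its copy LOC102724594 and of their sum in each library, with the 3 cinobufagin libraries left of the 3 DMSO libraries. The entries mirror each other across the cinobufagin libraries, at 75.9 and 12.9 FPKM in replicate 2, while the sums stay between 88.8 and 96.6 FPKM with cinobufagin and between 115 and 130 FPKM with DMSO.

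Summing FPKM over a family weights it by its abundant members. The hnRNP sum was 1748 ± 49.5 FPKM with cinobufagin and 2324 ± 51.3 FPKM with DMSO (SD, n = 3 each), a ratio of 0.752. HNRNPA1 and HNRNPA2B1 made up 50.9% of that difference, and without them the sums were 1427 ± 39.4 FPKM and 1710 ± 23.6 FPKM. The SR sum was 817 ± 13.2 FPKM with cinobufagin and 761 ± 9.10 FPKM with DMSO, higher despite the fall of SRSF3 and SRSF1. It leans on SRSF5, at 207 FPKM with cinobufagin and 141 FPKM with DMSO on average, and on SRSF9, at 200 and 165 FPKM. The median log2 fold change of the SR genes was -0.09, so the higher sum does not describe the typical member. The SF3 sum was 631 ± 7.20 FPKM with cinobufagin and 574 ± 14.1 FPKM with DMSO. There SF3B2 averaged 120 and 78.9 FPKM, while the SF3 median log2 fold change was -0.0055. The 6 other factors summed to 282 ± 20.9 FPKM with cinobufagin and 360.5 ± 1.70 FPKM with DMSO. U2AF1 entered that sum without its copy, at the scattered values of 44.77, 75.87 and 29.45 FPKM in the cinobufagin libraries. All 51 factors took 0.640% to 0.650% of the summed FPKM of a cinobufagin library and 0.725% to 0.749% of that of a DMSO library.

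**Figure D4:**
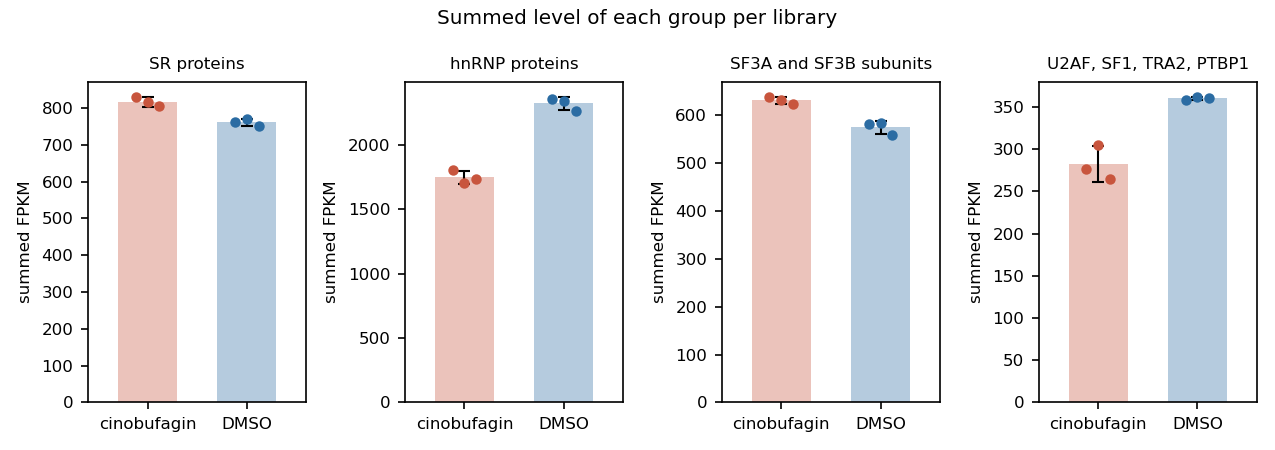
Summed FPKM of the hnRNP, SR, SF3 and other splicing factors in each library, cinobufagin left of DMSO, with points for libraries and bars for the mean. The hnRNP sums lie at 1706 to 1802 FPKM with cinobufagin and 2265 to 2361 FPKM with DMSO, while the SR and SF3 sums are a little higher with cinobufagin.

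The families differ in features that the naming rule did not use. GENCODE 29 annotates at least 1 nonsense-mediated decay transcript for all 12 SR genes, for 13 of 24 hnRNP genes, for 3 of 9 SF3 genes and for all 6 other factors. Over the 47 tested factors, the log2 fold change had a Pearson's r of -0.07 with the number of such transcripts (Spearman's rho -0.2). With the log2 level in DMSO, Pearson's r was -0.26 (Spearman's rho -0.21). These values are descriptions over genes that share the same libraries. The level in DMSO is also part of the fold change.

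Promoters were read from RefSeq (GRCh38.p14) as 250 bases before to 50 bases after each gene start, and 43 of the 47 tested factors matched. Short motifs, picked with the values known, were searched on both strands. CACGTG, the E-box that MYC and related factors bind, was found in 8 of 43 factors, 7 of them hnRNP genes, against 10.5% of promoters of all tested genes and 7.44% of all 27305 promoters. CCGGAAG, the core bound by ETS factors, was found in 12 of 43 factors and in 6 of 8 SF3 genes, against 20.5% of promoters of tested genes. CCAAT, bound by NF-Y, was found in 18 of 43 factors and 13 of 20 hnRNP genes, against 37.0%, and TATAAA in 5 of 43, against 5.09%. Of the factors with CACGTG, 6 fell and 2 rose; with CCGGAAG, 4 fell and 5 rose; with CCAAT, 10 fell and 3 rose; and with TATAAA, 4 fell and 1 rose. Over all 47 factors, 25 fell and 11 rose, and no motif was tested against the calls. The motifs overlap one another in none of the stretches shown here. A match is a description of letters, not of binding.

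The 250 bases upstream of the RefSeq start are shown for 4 genes as examples, all on the plus strand of GRCh38.p14, with motifs in capitals. These genes fell or rose strongly and their promoters matched, but other such genes are not shown. HNRNPA2B1, for instance, fell by 0.85 on the log2 scale and its promoter matched too. The 4 examples cannot show how often strongly changed genes carry these motifs. HNRNPM lies at chr19:8444725-8444974, SRSF3 at chr6:36594112-36594361, SF3B2 at chr11:66052114-66052363 and SRSF5 at chr14:69766892-69767141. GENCODE 29 sets the start of SF3B2, SRSF5 and HNRNPM further upstream, so the stretches of SF3B2 and SRSF5 lie inside the GENCODE spans given above and that of HNRNPM lies mostly inside its span.
HNRNPM: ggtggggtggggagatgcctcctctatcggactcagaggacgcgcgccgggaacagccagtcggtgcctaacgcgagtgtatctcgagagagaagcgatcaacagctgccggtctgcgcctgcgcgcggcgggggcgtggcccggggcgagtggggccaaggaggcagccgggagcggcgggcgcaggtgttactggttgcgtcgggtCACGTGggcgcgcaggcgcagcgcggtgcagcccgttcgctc
SRSF3: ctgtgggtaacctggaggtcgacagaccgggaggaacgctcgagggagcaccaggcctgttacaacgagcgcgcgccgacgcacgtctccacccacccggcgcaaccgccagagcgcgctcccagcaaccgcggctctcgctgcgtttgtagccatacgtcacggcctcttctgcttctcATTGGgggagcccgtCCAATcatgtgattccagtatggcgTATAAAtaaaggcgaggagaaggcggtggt
SF3B2: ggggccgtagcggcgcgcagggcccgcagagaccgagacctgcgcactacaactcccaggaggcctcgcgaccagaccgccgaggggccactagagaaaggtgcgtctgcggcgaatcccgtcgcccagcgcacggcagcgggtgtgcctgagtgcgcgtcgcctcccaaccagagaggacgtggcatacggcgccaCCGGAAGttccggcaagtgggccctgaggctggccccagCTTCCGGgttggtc
SRSF5: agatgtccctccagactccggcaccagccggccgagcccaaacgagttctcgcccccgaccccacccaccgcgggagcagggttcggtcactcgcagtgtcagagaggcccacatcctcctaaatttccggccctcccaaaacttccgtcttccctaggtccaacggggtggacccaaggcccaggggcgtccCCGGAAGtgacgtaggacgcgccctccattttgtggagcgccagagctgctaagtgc
HNRNPM carries a CACGTG, and SRSF3 carries CCAAT on each strand and a TATAAA. SF3B2 and SRSF5 each carry CCGGAAG, with the reverse form CTTCCGG also present in SF3B2.

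The rest of the splicing machinery was read through 9 lists that hold 195 genes, of which 189 were tested. Of these, 74 rose (39.2%), 44 fell (23.3%) and 71 did not pass, with a median log2 fold change of 0.04. Over all genes tested 39.2% rose and 28.4% fell, with a median of 0.06, so the share that rose was at the background. Differences between the lists were not tested. Among 13 core proteins of the small nuclear RNPs, 1 rose, 10 fell and 2 did not pass (median -0.32). SNRPA, an RNA-binding protein of the U1 particle, had 14.80, 15.83 and 16.88 FPKM with cinobufagin, against 41.83, 39.66 and 39.98 FPKM with DMSO (log2 fold change -1.30, SE 0.05, limma adjusted p = 3.09e-09). Among the others, the U2 protein gene SNRPA1 fell by 0.73 and the Sm ring gene SNRPD1 fell by 0.66 on the log2 scale. SNRPN, an Sm protein gene expressed mainly in neurons, was the one that rose, by 0.51, and is named with its value already seen; its reads are hard to separate from those of SNURF, which shares its transcript.

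Of 18 partners of U2 at the branch site, 6 rose, 6 fell and 6 did not pass (median -0.07). The export helicase gene DDX39A, at 7.81 ± 0.781 FPKM with cinobufagin and 19.6 ± 0.695 FPKM with DMSO, fell by 1.23 on the log2 scale, and RBM5, a regulator of apoptosis gene splicing, rose by 0.41. Of the 38 tri-snRNP and PRP19 complex genes 20 rose and 4 fell, while 14 did not pass (median 0.15). SYF2, CRNKL1 and RBM22, all found in the catalytic spliceosome, rose by 0.58, 0.56 and 0.51. Of 12 genes of the minor spliceosome, which removes a rare class of introns, 7 rose, 0 fell and 5 did not pass (median 0.22), led by RBM48 (9.65 ± 0.103 FPKM with cinobufagin and 4.89 ± 0.333 FPKM with DMSO), PDCD7 and ZRSR2, which rose by 0.86, 0.72 and 0.50.

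Kinases and importers of SR and hnRNP proteins were mixed, with 4 of 11 tested risen, 2 fallen and 5 that did not pass (median -0.01). CLK2, a nuclear kinase of SR tails, rose by 0.57, whereas SRPK1, the kinase that primes SR proteins for nuclear import, fell by 0.37 on the log2 scale. TNPO1, the importer of HNRNPA1, rose by 0.28. Of 31 SR-related and nuclear speckle genes, 17 rose and 3 fell, while 11 did not pass (median 0.16), with RSRP1, RSRC1 and SCAF1 higher by 0.82, 0.54 and 0.35 on the log2 scale.

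Other splicing regulators, 35 of them tested, held 12 that rose, 13 that fell and 10 that did not pass (median -0.06). The RNA-binding protein gene EWSR1 fell by 0.91 on the log2 scale, and the paraspeckle protein gene PSPC1 fell by 0.72. Among the exon junction complex and nonsense-mediated decay genes, 4 of 15 rose, 2 fell and the remaining 9 did not pass (median 0.00), with SMG8 and SMG6 higher by 0.46 and 0.34 on the log2 scale, while UPF3B fell by 0.36. Of 16 genes for snRNP assembly, 3 rose, 4 fell and 9 did not pass (median -0.03). WDR77 fell by 0.54, SNUPN fell by 0.43 and SMN2 fell by 0.34 on the log2 scale, the last being near-identical to SMN1, so that its reads are uncertain.

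**Figure D5:**
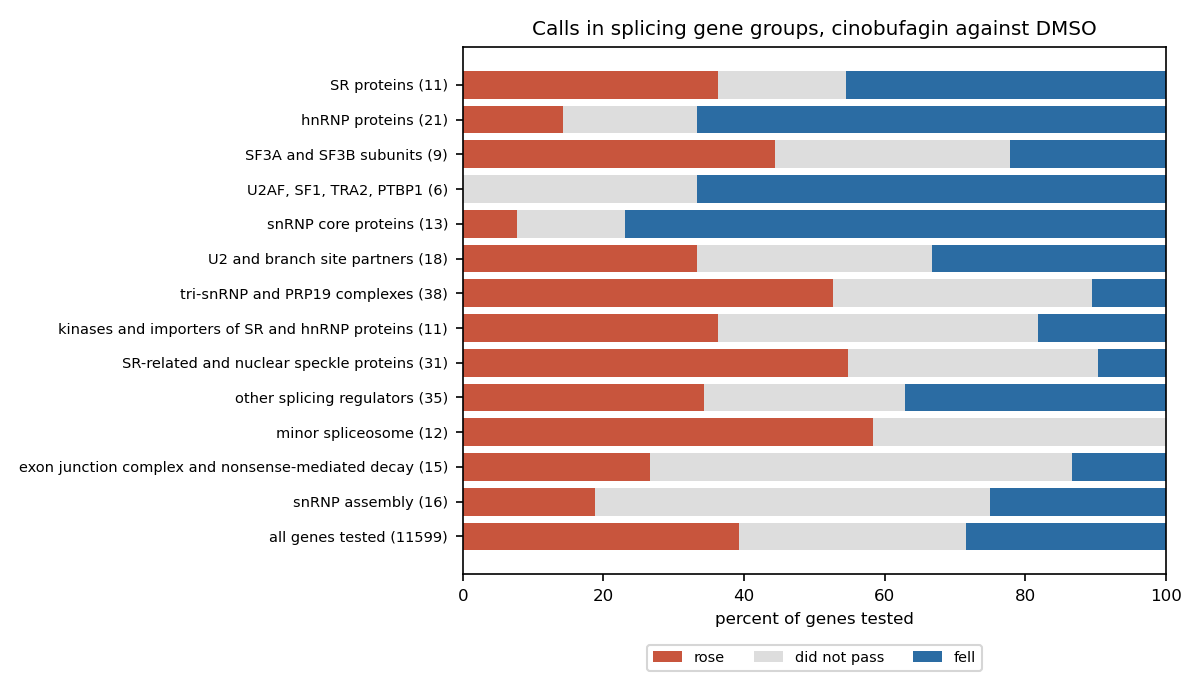
Percent of tested genes that rose, did not pass or fell with cinobufagin against DMSO. Bars stand for each splicing factor group, each list of the remaining splicing machinery and all genes tested. Of the hnRNP genes 14 of 21 fell and of the snRNP core genes 10 of 13, while 20 of 38 tri-snRNP and PRP19 genes and 7 of 12 minor spliceosome genes rose.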

How the data were processed

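Total RNA of 6 libraries was sequenced, and the deposited values are FPKM per gene, per the file headers. Bowtie2, RSEM 1.3.1, DESeq2 1.4.5 and the build GRCh38.p13 are named, with no role, per the submitters' processing notes. Control columns named mock were read as the DMSO libraries of the same number. Entries without a gene ID, 19 in all, were left out.

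The 11599 genes that reached 1 FPKM in 3 or more libraries were fitted as log2(FPKM + 1), cinobufagin minus DMSO, by limma 3.58.1 (R 4.3.3) with its mean-variance trend. Benjamini-Hochberg adjustment covered all of these genes, and 0.05 was the threshold. The SE is the moderated standard error, and SD describes the 3 libraries in a group. Fold changes on this scale understate those of low genes. FPKM is relative to the library, so it cannot show a change in total RNA. The pipeline was tested on simulated data.

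Symbols and promoters came from RefSeq (GRCh38.p14) and positions, coding sequences and 31-base words from GENCODE 29 (GRCh38). Of the reference's protein-coding names that match the rule, 2 have no entry and were not analysed here. Protein sequence features, which were planned, were not used here. The members and lists were chosen with earlier results of these data known. Values in every library are given for the 6 largest rises and 6 largest falls past the threshold, for the largest change each way and the most abundant member of each group, and for some further members; up to 3 genes are named per list by size of change, and exceptions are marked. A few items taken by this rule are left unreported. SRSF1, HNRNPK, SF3A1, SF3A2, PTBP1 and TRA2B were given in full, and PHF5A named, after their values were seen.

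Alternatives were other scalings, filters and pseudocounts, no trend, a replicate block, a minimum log2 fold change of 1, leaving out each library, and U2AF1 summed with its copy.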

Additional observations from a re-analysis of the deposited data

How the results depend on the processing

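The direction of every called splicing factor was kept under the 15 alternatives that gave it a value. With a minimum log2 fold change of 1, 0 factors were called in any group in either direction, since the largest change was -0.99; at an adjusted p alone, 25 fell and 11 rose. With no filter on low values, 3 SR genes fell instead of 5 and the calls of HNRNPA1L2 and U2AF1 were lost too. Median centring moved the factors' median log2 fold change to -0.177 against -0.135, and the log2 ratio of the SF3 sums was 0.158 when the libraries were scaled to equal sums, against 0.136, with a range of 0.116 to 0.147 when one library was left out; the cause was not tested. Leaving out one library gave 23 to 25 factors that fell and 10 or 11 that rose. The replicate numbers did not pair the libraries (correlations of deviations -0.049, -0.105 and -0.0091 over 11599 genes), and with the replicate block 25 factors fell and 11 rose, as without it. The depth of the libraries is unknown, so no limit on low values can be given.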
